A study of Mus musculus with 16 samples.

Results

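The genes Malat1 and Neat1 lie side by side on mouse chromosome 19 and give rise to a pair of long noncoding RNAs that stay in the nucleus. The binding of RUNX1, c-Jun, MyoG and MyoD around them was described from chromatin immunoprecipitation followed by sequencing (ChIP-seq). The members were the peaks that overlapped the window on chromosome 19 from 5.76 to 5.9 Mb on build mm9, which was given as the window that holds both genes. They numbered 70 of the 193322 peaks in the deposited lists: 17 of 42781 RUNX1 peaks, 14 of 42134 c-Jun peaks, 24 of 62456 MyoG peaks and 15 of 45951 MyoD peaks. The window was chosen on these same lists, because it holds a very wide region bound by all 4 factors. Counts, widths, scores and overlaps inside it are therefore a description with no test.

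The MyoG libraries came from primary myotubes kept for 24 hours in differentiation medium with 4% horse serum and insulin, on day 4 of culture. The RUNX1, MyoD and c-Jun libraries came from proliferating primary myoblasts on day 3 of culture. All cells were satellite cells, the stem cells of muscle, from the gastrocnemius of wild-type C57BL/6 mice aged 2 to 3 weeks, and no allele or drug separated the groups. With 2 ChIP and 2 control libraries for each factor, there were 16 in all. The controls were rabbit non-immune serum for RUNX1, rabbit IgG for c-Jun and mouse IgG for MyoG and MyoD. For c-Jun, MyoG and MyoD the antibodies were commercial, and for RUNX1 the antibody was made in house. How many animals were pooled was not given in the sources used here.

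Deposited files held 1 peak list per factor, with a position and a score for each peak. No list separated its replicates and none held read counts, so depth is unknown and no spread between cultures can be given. The controls had no values of their own and were not analysed here. The score is the value the authors' peak caller wrote. It ran from 50.01 to 3233 in every list, and between 286 and 800 peaks a list on chromosomes 1 to 19 and X sat at exactly 3100, which is called the score ceiling below. Scores were ranked only within 1 list. The lists hold no expression, so neither the labelled cell type nor the level of either RNA could be checked here.

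Neat1 RNA is the scaffold of paraspeckles, nuclear bodies that form around it while it is transcribed and that hold RNA-binding proteins such as SFPQ, NONO and PSPC1. Malat1 RNA gathers at nuclear speckles, bodies rich in splicing factors, and is among the most abundant noncoding RNAs of many cell types. RUNX1 is a runt-domain factor that binds DNA with its partner CBFB, while c-Jun forms the dimeric AP-1 factor with proteins such as FOS. MyoD and MyoG are muscle helix-loop-helix factors that bind E-boxes, MyoD in committed myoblasts and MyoG as they differentiate. In the RefSeq table of build GRCm38.p6, the neighbours on the Neat1 side were, from the nearest, Frmd8, Slc25a45 and Tigd3. That build differs from the peaks' build, so no gene position was set against a peak, and which peaks lie on a promoter or a gene body was not analysed here.

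The promoter of Malat1 is shown because it is the sequence of a named gene of the locus in the RefSeq promoter table, and because E-boxes are the sites that MyoD and MyoG bind. It covers 250 bases before to 50 bases after the gene start, chr19:5802623-5802922 on the minus strand of GRCm38.p6. The capitals mark the only E-box, the general form CANNTG, found in these 300 bases.
Malat1 promoter: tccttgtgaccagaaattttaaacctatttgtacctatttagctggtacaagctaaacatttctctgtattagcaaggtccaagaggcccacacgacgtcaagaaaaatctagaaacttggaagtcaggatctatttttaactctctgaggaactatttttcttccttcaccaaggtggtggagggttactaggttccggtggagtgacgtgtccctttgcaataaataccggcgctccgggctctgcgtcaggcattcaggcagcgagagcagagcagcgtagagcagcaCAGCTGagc

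The match reads CAGCTG and starts at base 292 of the 300, counted from the 5′ end. Both strands were searched. The form CANNTG occurred in 72.3% of 32851 promoters of this length, and CAGCTG, which is one of its forms, in 16.3%. The E-box form CAGGTG had no match in this window and occurred in 20.2% of promoters. Neither form of the RUNX site searched had a match: TGTGGT occurred in 16.8% of promoters, and the form TGCGGT in 6.45%. The AP-1 site TGANTCA had no match here either and occurred in 7.81%. A match is a run of letters and not a measured site, and no peak was placed on this sequence.

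Peaks of the 4 lists were spread unevenly over the window. Merging peaks that overlapped by at least 1 bp gave 21 regions, of which 4 held all 4 factors, 2 held 3, 8 held 2 and 7 held 1. Over chromosomes 1 to 19 and X, 10609 of 99548 merged regions (10.7%) held all 4 factors, 14968 held 3 (15.0%), 25871 held 2 (26.0%) and 48100 held 1 (48.3%). Of the window's bases, 68.3% lay under no peak, 10.7% under 1 list, 9.58% under 2, 5.62% under 3 and 5.80% under all 4. These last numbered 8119 bases, and 4117 of them lay in a single region.

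**Figure D1:**
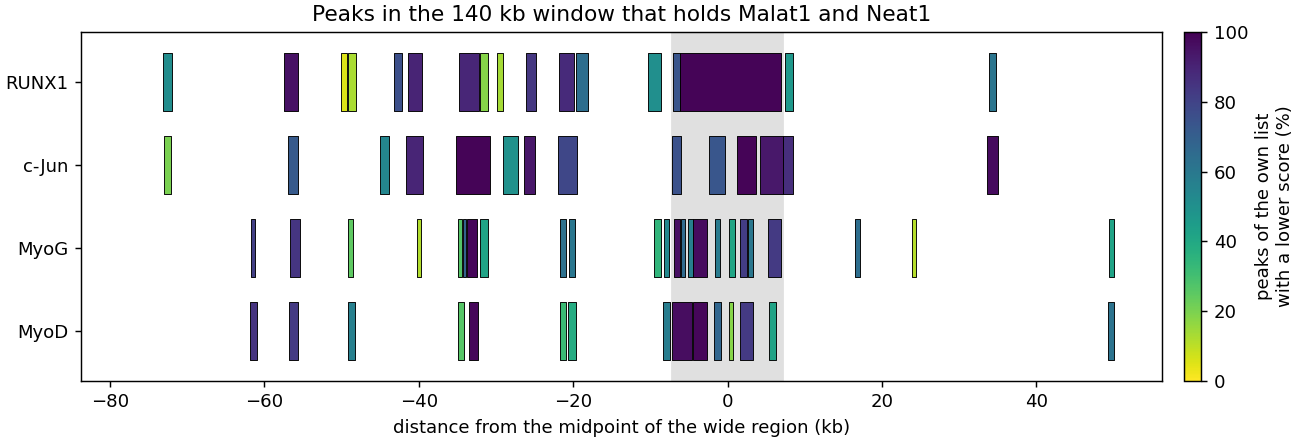
Peaks of the 4 lists in the window, as boxes drawn to scale, against the distance in kb from the midpoint of the wide region (grey band). The colour gives the percentage of the peak's own list with a lower score, and all 24 MyoG, 15 MyoD, 14 c-Jun and 17 RUNX1 peaks are drawn.

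The wide region ran from 5836524 to 5850927, a width of 14404 bp. It was the widest of the 10609 regions with all 4 factors, whose median width was 1544 bp and whose second widest measured 10214 bp. It held 21 of the 70 peaks: 2 of RUNX1, 4 of c-Jun, 9 of MyoG and 6 of MyoD. RUNX1 peaks lay over 96.8% of its bases, c-Jun peaks over 60.4%, MyoG peaks over 60.0% and MyoD peaks over 58.7%. All 4 lists lay over 28.6% of its bases, exactly 3 lists over 32.1%, 2 over 26.0% and 1 over 13.4%.

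Most of its length lay under a single RUNX1 peak from 5837601 to 5850654, while c-Jun peaks set both of its ends. This RUNX1 peak was 13054 bp wide and had a score of 3100, the ceiling. It was among 364 RUNX1 peaks at exactly that score, with 55 RUNX1 peaks above it. No other of the 42781 RUNX1 peaks was as wide: it was 1.39 times as wide as the next, at 9374 bp, and 13.8 times as wide as the median RUNX1 peak, at 944 bp. The other RUNX1 peak of the region, from 5836659 to 5837542, was 884 bp wide with a score of 424.8.

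Where RUNX1 had this single peak, the other lists were broken into separate peaks. It was overlapped by 4 c-Jun peaks, 8 MyoG peaks and 6 MyoD peaks, which lay over 56.3%, 59.9% and 57.1% of its length. Gaps between neighbouring peaks of a list ranged from 503 to 3596 bp in the c-Jun list, from 27 to 1900 bp in the MyoG list and from 80 to 2042 bp in the MyoD list. Of the RUNX1 peak, 1620 bases (12.4%) lay under no other list, in 4 stretches of at most 503 bp.

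**Figure D2:**
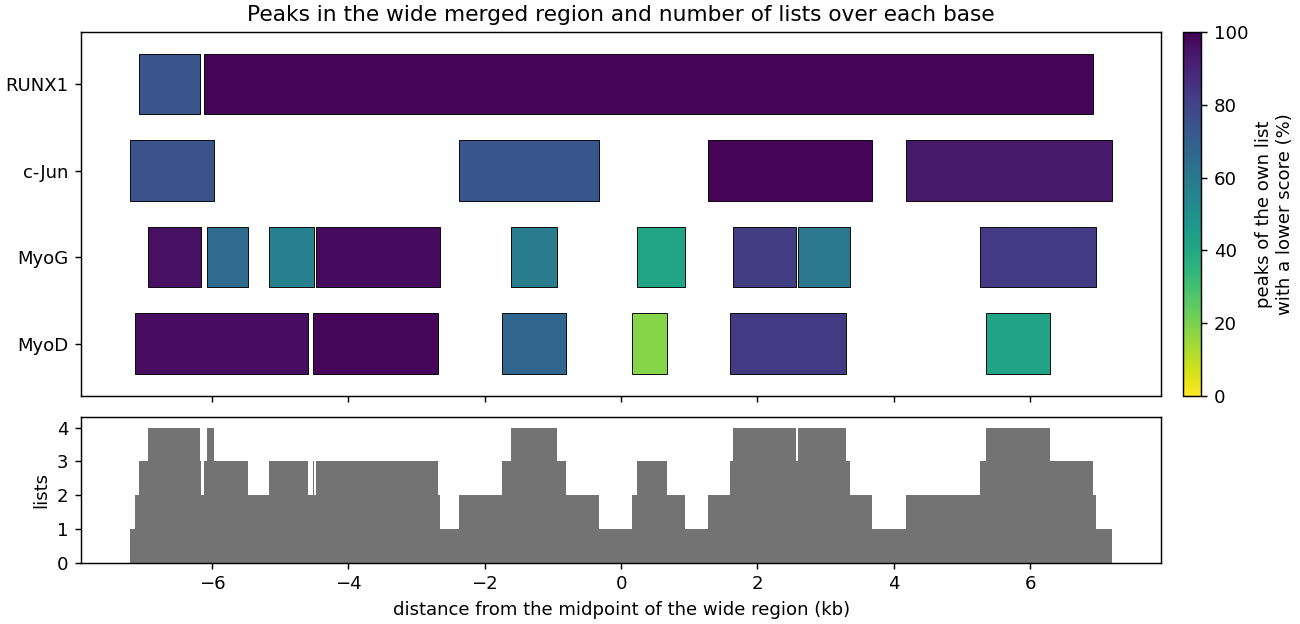
Peaks inside the wide region (upper panel, coloured by the percentage of the own list with a lower score) and the number of lists over each base (lower panel), against the distance in kb from the midpoint of the region. The single RUNX1 peak of 13054 bp spans the separate c-Jun, MyoG and MyoD peaks, and all 4 lists lie together over 4117 bases.

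From its low-coordinate to its high-coordinate end, the region changed in which factors lay over it. At the low end, all 4 lists shared 760 bases from 5836783 to 5837542. There the MyoG peak had a score of 1928, the MyoD peak 2362, the RUNX1 peak 424.8 and the c-Jun peak 419.2. The MyoD peak ran on to 5839125, so its score does not belong to the shared bases alone. The MyoG and MyoD peaks over these bases stood high in their own lists, with 95.8% and 96.6% of peaks lower. For the RUNX1 and c-Jun peaks over the same bases, 73.8% and 74.8% of their lists were lower.

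Next to it was a stretch without c-Jun. The MyoG peak from 5839253 to 5841061 was 1809 bp wide with a score of 2248, and the MyoD peak from 5839206 to 5841032 was 1827 bp wide with a score of 3100. Their midpoints lay 38 bp apart, and RUNX1, MyoG and MyoD shared 1780 bases. These were the highest-scoring MyoG and MyoD peaks of the region, and 334 MyoG peaks and 391 MyoD peaks in the whole lists were wider.

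In the middle of the region, within the wide RUNX1 peak at the ceiling, the c-Jun, MyoG and MyoD peaks had scores of at most 390.0. A MyoG peak from 5842106 to 5842785 with a score of 260.9 and a MyoD peak from 5841980 to 5842915 with a score of 332.6 had midpoints 2 bp apart, inside a c-Jun peak of 2048 bp with a score of 390.0. A further pair, MyoG from 5843951 to 5844659 with a score of 143.7 and MyoD from 5843887 to 5844400 with a score of 76.52, met no c-Jun peak. That MyoD peak, at 514 bp, was among the narrow ones of its list, of which 2.74% were narrower.

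Toward the high end c-Jun stood out. Its peak from 5845000 to 5847402 had a score of 2809, with 98.9% of c-Jun peaks lower, and its peak from 5847906 to 5850927 had a score of 1273 and a width of 3022 bp. Over the first of these lay a pair of MyoG peaks with scores of 745.6 and 279.2 and a MyoD peak with a score of 720.0. Over the second lay a MyoG peak with a score of 770.9 and a MyoD peak with a score of 138.7. The midpoints of the highest c-Jun and the highest MyoG peak of the region were 6.04 kb apart, and those of the highest c-Jun and the highest MyoD peak 6.08 kb. Within the region the highest c-Jun peak and the highest MyoG and MyoD peaks thus lay on opposite sides of its midpoint. Their distances from it were 2.48 kb for c-Jun, -3.57 kb for MyoG and -3.61 kb for MyoD, so none was at an end.

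The edge of the region was close. Only 3 bp separated it from the next region, from 5850931 to 5852234, which held c-Jun (score 774.1) and RUNX1 (score 160.9) without MyoG or MyoD. On the low side 203 bp separated it from a region of MyoG and MyoD alone, from 5835404 to 5836320, with scores of 209.2 for MyoG and 232.2 for MyoD. Merging across gaps of up to 100 bp, a setting added after the values were seen, gave a width of 15711 bp.

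The other regions with all 4 factors lay toward the low-coordinate end. The region from 5808560 to 5812899, 4340 bp wide, held the highest-scoring MyoG and c-Jun peaks of the window and a MyoD peak at the ceiling. A MyoG peak from 5810042 to 5811258 had a score of 3066, and 802 MyoG peaks were higher. The MyoD peak from 5810252 to 5811405 had a score of 3100. It was among 800 MyoD peaks at exactly that score, and 73 MyoD peaks were higher. A single c-Jun peak spanned the whole 4340 bp with a score of 2845, and 11 of the 42134 c-Jun peaks were wider. RUNX1 had a peak of 2557 bp with a score of 933.9 and one of 1146 bp with a score of 73.53. All 4 lists shared 1656 bases there, and 135 of the 10609 regions with all 4 factors were at least as wide.

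Of the remaining pair, the region from 5821766 to 5825619 was 3854 bp wide and had lower scores. MyoG peaks had scores of 307.4 and 281.6, MyoD peaks 104.5 and 124.9, RUNX1 peaks 867.9 and 289.6 and the c-Jun peak 503.4. The region from 5786242 to 5788403 was 2162 bp wide. Its RUNX1 peak had a score of 1641, with 95.5% of RUNX1 peaks lower, and its MyoG, MyoD and c-Jun peaks had scores of 848.4, 715.7 and 370.6. In these regions all 4 lists shared 1365 and 981 bases.

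The regions with 3 factors were the region from 5794533 to 5795606 and the one from 5802079 to 5804286. In the first, RUNX1 (score 64.50), MyoG (89.92) and MyoD (221.1) lay together without c-Jun. In the second, RUNX1 (1002), c-Jun (913.1) and MyoG (63.95) lay together without MyoD, so that strong RUNX1 and c-Jun peaks met a MyoG peak in the lowest part of its list, of which 11.4% were lower.

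Regions with 2 factors mostly joined RUNX1 to c-Jun or MyoG to MyoD. RUNX1 and c-Jun alone shared 4 of the 8. They were the first region of the window, from 5770655 to 5771744, one from 5817411 to 5818853, the neighbour of the wide region from 5850931 to 5852234, and one from 5877285 to 5878764. The last had the highest c-Jun score of the 4, 1942, which 97.2% of c-Jun peaks did not reach, with a RUNX1 score of 257.2. The one from 5817411 to 5818853 had the highest RUNX1 score, 700.4, with 84.3% of RUNX1 peaks lower, and a c-Jun score of 1284. MyoG and MyoD alone shared 3, namely the region from 5781868 to 5782827, the other neighbour of the wide region from 5835404 to 5836320, and the last region of the window, from 5893066 to 5893803. In the first of these the MyoG score was 710.6 and the MyoD score 816.3. RUNX1 and MyoG shared the remaining 1, from 5833396 to 5835093, with scores of 180.3 and 117.4. Over all 25871 merged regions with 2 factors, RUNX1 with c-Jun made up 5174, MyoG with MyoD 12319 (47.6%) and RUNX1 with MyoG 4604 (17.8%).

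The regions with 1 factor were 3 of RUNX1, 2 of c-Jun and 2 of MyoG, and 0 of MyoD. Over all merged regions, RUNX1 alone made up 10.8%, c-Jun alone 14.3%, MyoG alone 16.7% and MyoD alone 6.52%. Of the RUNX1 peaks, the one from 5800580 to 5801499 had the highest score, 469.2, with 76.0% of its list lower. The 2 MyoG peaks lay toward the high-coordinate end, from 5860286 to 5860929 with a score of 324.7 and from 5867587 to 5868191 with a score of 63.85.

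**Figure D3:**
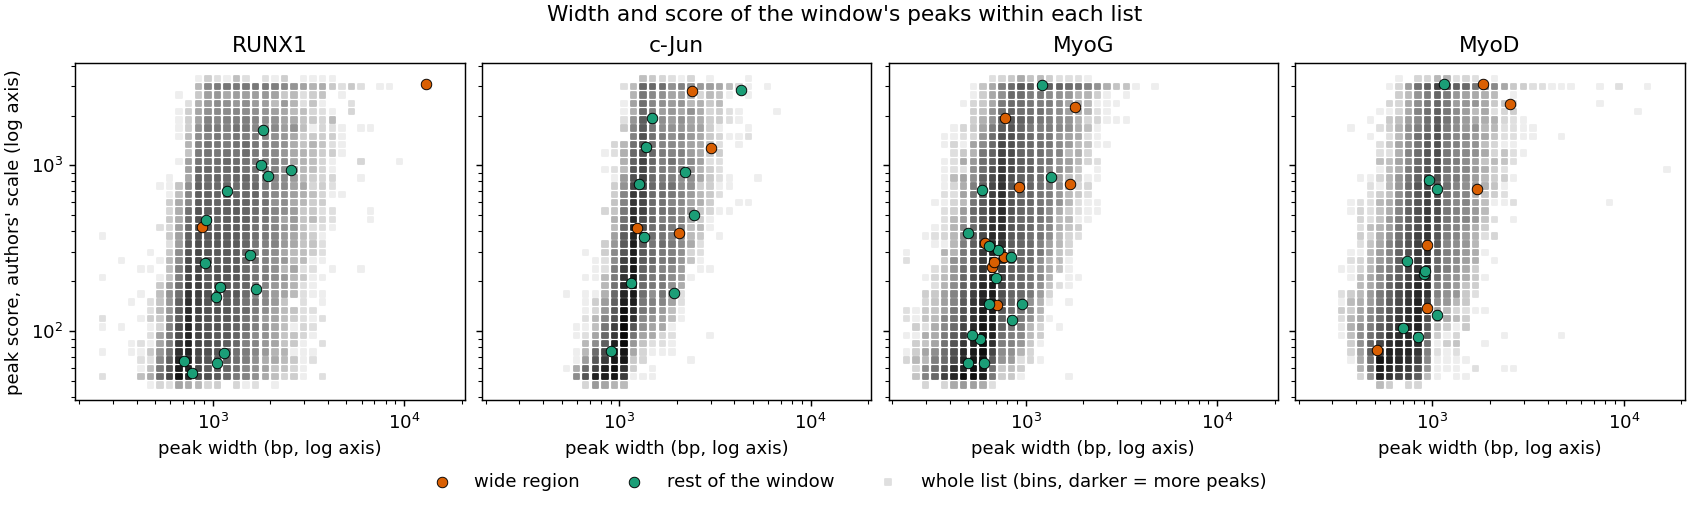
Width in bp against score for every peak, 1 panel a list, both on log axes; grey squares bin the whole list, orange points are the peaks of the wide region and green points the rest of the window. The RUNX1 peak of 13054 bp lies to the right of its whole list, while most other points lie within the grey area.

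Across the window, most peaks were wider than the middle of their own list. Widths ranged from 711 to 13054 bp in the RUNX1 list, from 905 to 4340 bp in the c-Jun list, from 496 to 1809 bp in the MyoG list and from 514 to 2528 bp in the MyoD list. Median widths in the window and in the whole list were 1146 and 944 bp for RUNX1 and 1706 and 1123 bp for c-Jun. For MyoG they were 704.5 and 640 bp, and for MyoD 938 and 817 bp. Above the list's median width were 12 of 17 RUNX1, 13 of 14 c-Jun, 17 of 24 MyoG and 12 of 15 MyoD peaks.

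Scores were likewise mostly above the middle of each list. Median scores in the window and in the whole list were 290 and 177 for RUNX1, 639 and 171 for c-Jun, 280 and 189 for MyoG, and 267 and 176 for MyoD. Above the list's median score were 12 of 17 RUNX1, 12 of 14 c-Jun, 16 of 24 MyoG and 10 of 15 MyoD peaks. In the top 10% of their list by score were 3 RUNX1, 5 c-Jun, 3 MyoG and 3 MyoD peaks. Each list also had weak peaks here, with lowest scores of 55.54 for RUNX1, 76.03 for c-Jun, 63.85 for MyoG and 76.52 for MyoD.

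By overlap of at least 1 bp, most MyoG and MyoD peaks met one another between the stages. With midpoints within 150 bp, 41.7% of MyoG peaks met MyoD and 66.7% of MyoD peaks met MyoG. The values that follow are by overlap. Of the 24 MyoG peaks of myotubes, 19 (79.2%) met a MyoD peak of myoblasts, against 57.7% of the whole MyoG list. All 15 MyoD peaks met a MyoG peak, against 77.1% of the whole MyoD list. Of the 5 MyoG peaks without MyoD, 3 met a RUNX1 peak, 2 of which also met a c-Jun peak, and 2 met no list. Factor and stage differed together and cannot be told apart.

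RUNX1 and c-Jun were paired often too. A c-Jun peak met 12 of 17 RUNX1 peaks (70.6%), against 46.8% of the whole list, and a RUNX1 peak met 12 of 14 c-Jun peaks (85.7%), against 46.8%. RUNX1 met 19 of 24 MyoG peaks (79.2%), against 42.4%, and 12 of 15 MyoD peaks (80.0%), against 42.5%. In the other direction the window's shares lay slightly below those of the list: MyoG met 9 of 17 RUNX1 peaks (52.9%), against 57.9%, and MyoD met 7 of 17 (41.2%), against 44.3%. The single wide RUNX1 peak counts once as a RUNX1 peak but meets 8 MyoG and 6 MyoD peaks.

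For c-Jun with the muscle factors, c-Jun met 14 of 24 MyoG peaks (58.3%), against 32.8%, and 9 of 15 MyoD peaks (60.0%), against 41.9%. MyoG met 8 of 14 c-Jun peaks (57.1%), against 45.1%, and MyoD met 7 of 14, against 44.0%. Without the peaks of the wide region, MyoG met 4 of 10 c-Jun peaks and MyoD met 3 of 10 (30.0%), both below the shares of the whole list.

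**Figure D4:**
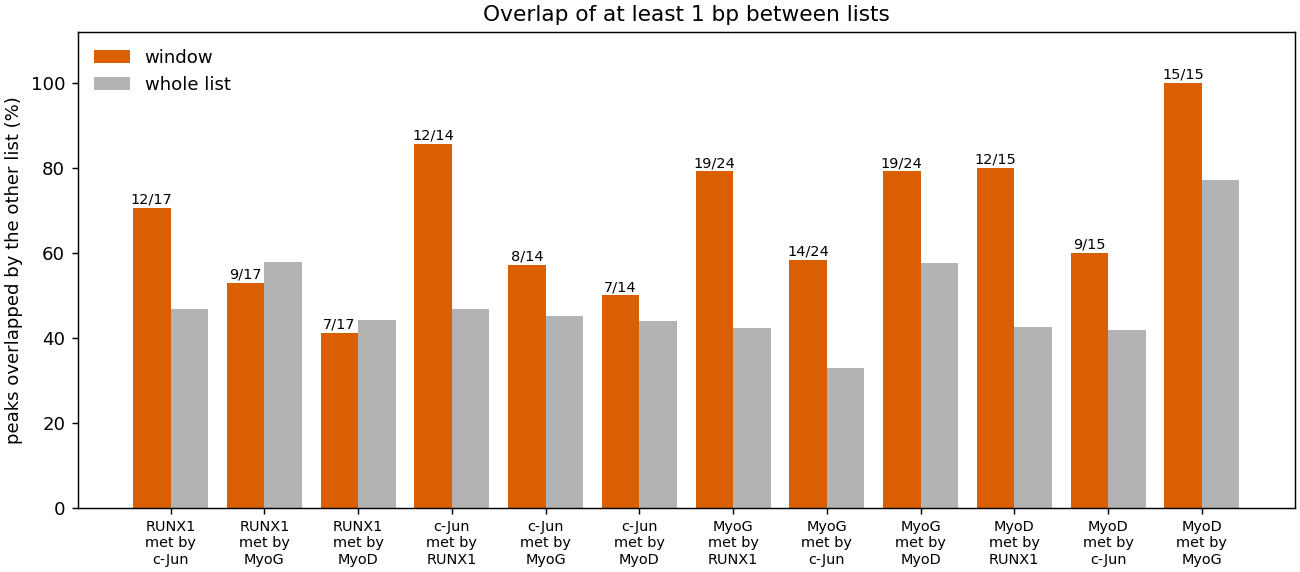
Percentage of each list's peaks that a peak of the other list overlapped by at least 1 bp, in the window (orange, with counts) and in the whole list (grey), for the 12 ordered pairs of lists. The window stands above the list in 10 pairs and below it for RUNX1 peaks met by MyoG and by MyoD; without the wide region, c-Jun peaks met by MyoG and by MyoD also fall below it.

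Overlap by 1 bp does not mean that peaks were centred together, and wide peaks overlap others more readily. With midpoints within 150 bp, RUNX1 met 2 of 24 MyoG peaks (8.33%), against 24.6% of the whole list, and 2 of 15 MyoD peaks (13.3%), against 23.2%. By midpoints, c-Jun met 3 of 24 MyoG peaks (12.5%), against 18.1%, MyoG met 3 of 14 c-Jun peaks (21.4%), against 26.9%, and MyoD met 10 of 24 MyoG peaks (41.7%), against 49.7%. MyoG met 10 of 15 MyoD peaks (66.7%), against 67.6%. This last share was near that of the list, and several of these midpoint counts were only 2 or 3 peaks. So for these 6 pairs the window stood above the list by overlap but not by midpoints, and small differences by midpoints carry little weight. It stood above the list by both rules for RUNX1 with c-Jun and for c-Jun with MyoD, in either direction. By midpoints each rested on 5 peaks. There c-Jun met 29.4% of RUNX1 peaks, against 24.6%, and RUNX1 met 35.7% of c-Jun peaks, against 25%. MyoD met 35.7% of c-Jun peaks, against 26.5%, and c-Jun met 33.3% of MyoD peaks, against 24.3%. These small excesses carry little weight either. The window stood below the list by both rules for RUNX1 peaks met by MyoG or MyoD. By midpoints these were 2 peaks each, 11.8%, against 36% and 25%. The median distance of a MyoD midpoint to the nearest overlapping MyoG midpoint was 84 bp in the window, with a range from 2 to 351.5 bp, and 53.5 bp in the whole list. From MyoG peaks to MyoD it was 120 bp in the window and 54.5 bp in the whole list. The RUNX1 peak of 13054 bp has a single midpoint, to which 8 MyoG peaks were measured, among them the most distant, at 6176 bp. From MyoG peaks to RUNX1 the median was 570 bp in the window and 111 bp in the whole list. Between RUNX1 and c-Jun it was 158 bp, and 138 bp over the list, and the closest pair, from 5877285 to 5878764, had midpoints 18.5 bp apart.

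The window was also dense for its size. It was set beside 18839 tiles of 140 kb on chromosomes 1 to 19 and X, without the 2 tiles that overlap it. RUNX1 peaks lay over 34142 bases of the window, against a tile median of 740, and 6 tiles had as many. For c-Jun it was 27179 bases, against 1153, with 2 tiles as high, and for MyoG 19811 bases, against 741, with 60 tiles as high. MyoD peaks lay over 16785 bases, against 869, with 34 tiles as high.

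By number of peaks, 71 tiles held as many RUNX1 peaks as the window, 75 as many c-Jun peaks, 83 as many MyoG peaks and 126 as many MyoD peaks. In all 4 lists at once, 11 tiles held as many peaks, and 1 had as many bases under peaks. That tile, singled out after its values were seen, lay on chromosome 11 from 117040001 to 117180000 with 21 RUNX1, 22 c-Jun, 28 MyoG and 22 MyoD peaks.

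**Figure D5:**
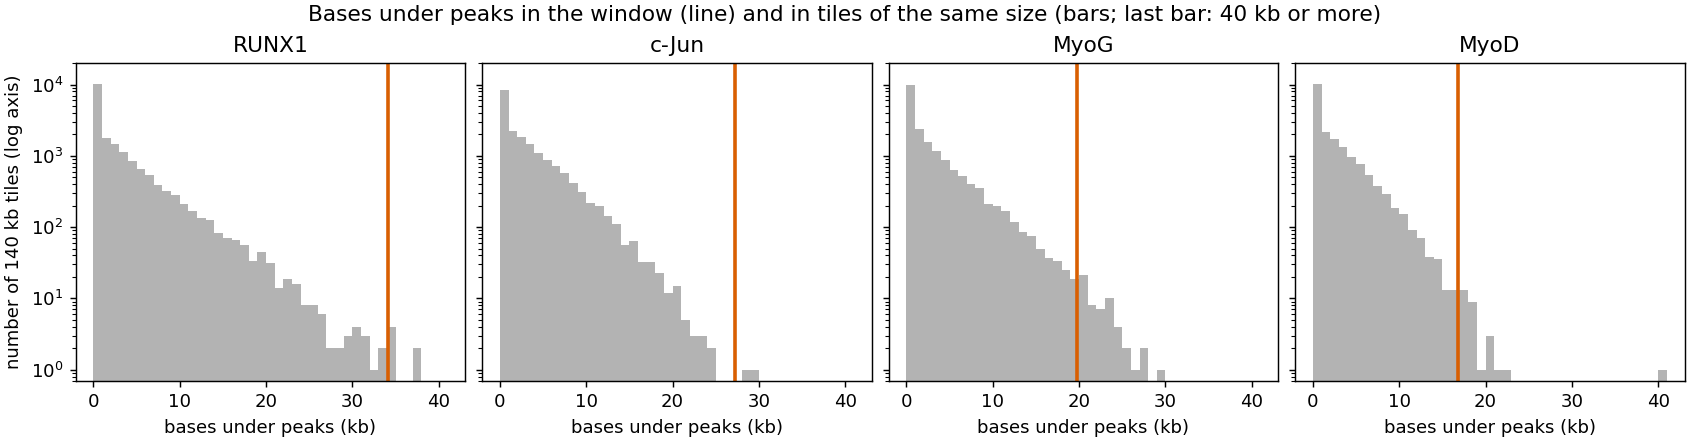
Number of 140 kb tiles (log axis) by the bases under peaks of each list in kb, with the window as a line; the last bar holds tiles with 40 kb or more. The window lies at 34142 bases for RUNX1, 27179 for c-Jun, 19811 for MyoG and 16785 for MyoD, in the upper tail of each list.

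The 3 regions with all 4 factors nearest to the wide region in width varied in make-up. On chromosome 11 from 98797017 to 98807230, a RUNX1 peak of 9374 bp lay over 91.8% of 10214 bp with a score of 1015. The highest scores there were 198.6 for c-Jun, 476.0 for MyoG and 171.5 for MyoD, and all 4 lists shared 6.43% of it, against 28.6% of the wide region. On chromosome 2 from 77768852 to 77778656, the extent of 9805 bp came from a single MyoD peak, and RUNX1 lay over 8.13%. On chromosome 15 from 76032310 to 76040609, a RUNX1 peak at the ceiling lay over all 8300 bp, with MyoG and MyoD at the ceiling and a highest c-Jun score of 753.6. There c-Jun peaks lay over 51.8% and MyoG peaks over 57.3%, against 60.4% and 60.0% of the wide region, and MyoD peaks over 36.3%, against 58.7%. All 4 lists shared 24.8% of it. Likeness here is of width alone.

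At the window's edges the nearest peaks lay several kb away, and no peak straddled an edge. At the low-coordinate edge, the first peaks inside were a RUNX1 peak (score 185.2) and a c-Jun peak (76.03) that began 10655 and 10705 bp from it. The nearest outside were a RUNX1 peak 9971 bp away (112.2) and a c-Jun peak 15521 bp away (1637). There the first MyoG and MyoD peaks inside began 21970 and 21868 bp from the edge, with scores of 710.6 and 816.3, and the nearest outside lay 17157 and 19819 bp away, with scores of 121.3 and 94.76. At the high-coordinate edge, MyoG and MyoD peaks lay 6263 and 6197 bp inside (scores 145.7 and 266.6) and 6553 and 6546 bp outside (scores 120.0 and 104.3). The last RUNX1 and c-Jun peaks inside ended 21499 and 21236 bp from it, with scores of 257.2 and 1942, and the nearest outside lay 11932 and 23933 bp away, with scores of 143.3 and 134.8.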

How the data were processed

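The deposited files were 4 peak lists on build mm9. Per the submitters' processing notes, CASAVA 1.7.0 and 1.8.2 and Bowtie were used. Peak names began with MACS, per the file contents. The MACS version, its settings, the control and any joining of replicates were not given in the sources used here. Each score is printed as the authors deposited it. Per the labels' protocols, fragments near 300 bp were amplified over 15 PCR cycles into a library size near 250 bp. The names of 3 lists matched the labels, and the remaining list, whose name holds only MG, was taken as MyoG by elimination.

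The BED starts were raised by 1 to give 1-based positions. Chromosomes 1 to 19 and X were used, which left out 19 MyoD peaks on Y. An overlap of 1 bp or more counted as shared, and merging used the same rule. Tiles of 140 kb were counted from the start of each chromosome to its last peak. No test was made. Alternatives were a score of 100 or more, midpoints in the window, 50% of the shorter peak, midpoints within 150 bp, and peaks of 200 bp. The window, the lists and the rules were chosen with earlier results of these data known. The rule for named items took both genes, up to 3 neighbours a side and every region with 2 or more lists. Neighbours on the Malat1 side are not reported here. It also took each list's widest peak, the peaks at the window's edges and the 3 regions nearest in width. The overlap functions were tested on simulated peaks and recovered 800 of 800 planted overlaps. Python 3.11.15, numpy 2.4.6, pandas 2.3.3 and matplotlib 3.10.9 were used.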

Additional observations from a re-analysis of the deposited data

How the results depend on the processing

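No paired analysis was possible because no result came from a test and the lists carry no replicate, so no replicate could be left out either. Of 54 alternative values, 43 stayed within 1.5 times the reported value and 11 did not. A score of 100 or more, midpoints in the window and 50% of the shorter peak moved no result that far. With midpoints within 150 bp, the share of RUNX1 peaks met was 29.4% for c-Jun, 11.8% for MyoG and 11.8% for MyoD. In the whole list these were 24.6%, 36% and 25%. The share of c-Jun peaks met was 35.7% for RUNX1 and 21.4% for MyoG, against 25% and 26.9%. The share of MyoG peaks met was 8.33% for RUNX1, 12.5% for c-Jun and 41.7% for MyoD. In the whole list these were 24.6%, 18.1% and 49.7%. That of MyoD peaks was 13.3% for RUNX1 and 33.3% for c-Jun, against 23.2% and 24.3%. For each of these pairs the whole list also fell from its share by overlap, so a fall alone is not particular to the window. For MyoG peaks met by MyoD the whole list fell only from 57.7% to 49.7%. With peaks of 200 bp around their midpoints, 0 regions of the window held all 4 lists, against 5.26% of all regions. A peak of 13054 bp is reduced to its middle 200 bp by this setting. The window's other regions with all 4 lists do not hold that peak, and none of them kept all 4 lists either. Leaving out the wide region, chosen after the values were seen, gave 30.0% for c-Jun peaks met by MyoD, and the other 11 pairs stayed within 1.5 times. Depth is unknown, so a missing peak does not show that a factor was absent.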
